A study of Mus musculus with 31 samples.

Results

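Messenger RNA of 10 immune checkpoint genes, Cd274, Pdcd1lg2, Pdcd1, Lag3, Havcr2, Tigit, Cd80, Cd86, Cd276 and Cd47, was examined in RM-9 and MC-38 tumors before and after radiotherapy (RT). The genes were chosen by name, and all 10 were found among the 46072 genes measured. RM-9 is a mouse prostate cancer cell line and MC-38 a mouse colon cancer cell line, and each was grown under the skin of the right hind leg of wild-type male C57BL/6J mice, 6 to 7 weeks old when bought. Whole tumor tissue was sequenced from 31 mice, 15 with RM-9 and 16 with MC-38 tumors. In each tumor model, 4 control mice received no RT, and the other mice were killed 3 h, 12 h or 24 h after a single local dose of 15 Gy. There were 4 mice per group, except RM-9 RT 24 h, which had 3. The controls are labelled with the 3 h time and serve for all 3 times, so time since inoculation and RT cannot be told apart at 12 h and 24 h, and the 3 comparisons of a model share their controls. The groups of a model differ only in RT and time, and each model is a single cell line in a single mouse strain.

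Expression is given as TPM, a transcript abundance scaled by the length of the gene and by the total of the library. Libraries held 23.0 to 29.4 M reads in RM-9 and 21.4 to 25.5 M in MC-38 tumors. Transcripts of the mitochondrial genome took 47.3 to 57.2% of TPM in RM-9 tumors and 22.5 to 40.6% in MC-38 tumors, and MC-38 control mouse 1 had the highest share in MC-38 tumors. The same mouse had 9783 TPM of 5 skeletal muscle markers, against 16.9 to 1592 TPM in the other MC-38 controls. The total of TPM is the same in every library, so the mitochondrial share moves all other genes. The median gene differed from control by a log2 fold change of 0.06, -0.19 and -0.04 in RM-9 tumors at the 3 times in order. In MC-38 tumors it differed by 0.19, 0.33 and 0.22. With mitochondrial genes left out of TPM, these values were 0.06, -0.06 and -0.01 in RM-9 and 0.11, 0.21 and 0.13 in MC-38 tumors. What else moved the median gene was not tested. Changes of the 10 genes are given on TPM as deposited and, where they passed, again after median-ratio scaling, in which a library's factor is its median ratio, over genes, to a reference built from all libraries of the fit. Epithelial markers checked the labels in part. Epcam, Krt8 and Krt18 summed to 610 to 1394 TPM in RM-9 tumors and to no more than 0.741 TPM in MC-38 tumors, although both are labelled adenocarcinoma. In tissue, fewer cells of a type and less RNA per cell cannot be told apart.

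Checkpoints are pairs of surface proteins that raise or lower the response of lymphocytes and phagocytes. Cd274 encodes PD-L1 and Pdcd1lg2 encodes PD-L2, both ligands of the T cell receptor PD-1, which Pdcd1 encodes, and interferon-gamma acting through JAK kinases and IRF1 is the best known inducer of PD-L1. LAG-3, TIM-3 (Havcr2) and TIGIT are further inhibitory receptors of activated T and NK cells, and TIM-3 is also found on macrophages and dendritic cells. CD80 and CD86 on antigen-presenting cells bind the costimulatory receptor CD28 and the inhibitory receptor CTLA-4. B7-H3 (Cd276) is a ligand found on many tumor cells, and CD47 on the surface of most cells binds SIRPa on phagocytes and restrains engulfment.

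The genes for both PD-1 ligands are neighbours on chromosome 19, with 22824 bases from the end of Cd274 to the start of Pdcd1lg2, and are read from the same strand. Their promoters are shown because these neighbours differed between the models in opposite directions. The 250 bases before each RefSeq start site, at chr19:29367188-29367437 and chr19:29410669-29410918 of the + strand of GRCm38.p6, read 5′ to 3′ as follows, with matches to a searched motif in capitals.
Cd274: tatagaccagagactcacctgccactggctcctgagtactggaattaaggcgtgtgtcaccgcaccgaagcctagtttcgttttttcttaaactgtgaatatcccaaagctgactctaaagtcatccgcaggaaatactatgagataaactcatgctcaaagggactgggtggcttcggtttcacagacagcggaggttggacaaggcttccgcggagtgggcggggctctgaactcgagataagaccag
Pdcd1lg2: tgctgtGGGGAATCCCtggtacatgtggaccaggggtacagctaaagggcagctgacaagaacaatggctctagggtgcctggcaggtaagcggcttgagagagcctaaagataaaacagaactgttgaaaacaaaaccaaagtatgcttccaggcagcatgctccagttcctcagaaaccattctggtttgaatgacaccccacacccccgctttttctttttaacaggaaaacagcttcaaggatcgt
The motifs, searched on both strands, were GAAA, 2 bases of any kind and GAAA for interferon regulatory factors, and GGGA, any 4 bases and CC for NF-kB, which occur in 2.98% and 17.6% of 32851 promoters of this length. The Cd274 window held 0 matches and the Pdcd1lg2 window held 1, to the NF-kB letters on the minus strand. Among the 8 genes of the set with a promoter in the RefSeq table, Cd80 also held 1 NF-kB match. These are matches of letters and describe no binding.

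The first comparison was between the control tumors of both models. On the log2 scale of TPM + 0.5, 6 of the 10 genes were higher in MC-38 tumors, 3 were lower and 1, Tigit, did not pass (limma, Benjamini-Hochberg adjusted p under 0.05), against 75.4% of all 15358 genes tested that passed in either direction, 64.7% higher and 10.7% lower. With 9 of 10 called, the checkpoint genes stand near this background. With median-ratio scaling, 5 were higher and 4 lower, against 34.1% and 31.5% of all genes. RM-9 and MC-38 libraries are separate sets, so the tumor model and anything else that differs between the sets cannot be told apart here.

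On TPM as deposited, the widest gap was in Cd274, and after median-ratio scaling in Cd276. The TPM of Cd274 in control mice was 1.76, 2.36, 2.23 and 1.74 in RM-9 and 11.9, 22.6, 21.03 and 19.6 in MC-38 tumors, without overlap. The log2 fold change was 2.90 (SE 0.22, adjusted p = 3.33e-12), and 2.31 after median-ratio scaling. Pdcd1lg2 went the other way, with 2.10, 2.23, 1.75 and 1.84 TPM in RM-9 and 0.763, 0.973, 0.498 and 1.86 TPM in MC-38 tumors, and a log2 fold change of -0.77 (SE 0.24, adjusted p = 0.00546), or -1.26 after median-ratio scaling. One MC-38 control, mouse 4, lay within the RM-9 range. The log2 ratio of Cd274 to Pdcd1lg2 within a library, which scaling cannot move apart from the pseudocount, was 0.02 ± 0.20 (SD, n = 4) in RM-9 and 3.70 ± 0.62 (SD, n = 4) in MC-38 controls.

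Cd47 was the most abundant of the 10 genes in both models. Control mice had 44.1, 42.0, 33.6 and 45.8 TPM of Cd47 in RM-9 and 126, 148, 178 and 175 TPM in MC-38 tumors, a log2 fold change of 1.91 (SE 0.13, adjusted p = 3.42e-13), or 1.24 after median-ratio scaling. Cd276 had the reverse difference, with 35.9, 33.9, 36.3 and 37.4 TPM in RM-9 and 6.48, 9.91, 10.9 and 9.08 TPM in MC-38 controls, a log2 fold change of -1.95 (SE 0.13, adjusted p = 2.12e-13), or -2.60 after median-ratio scaling. Cd80 was also lower in MC-38 tumors, at 1.63, 1.52, 1.86 and 3.03 TPM against 8.09, 7.51, 6.68 and 7.25 TPM in RM-9 tumors (log2 fold change -1.68, SE 0.21, adjusted p = 5.05e-08, or -2.27 after median-ratio scaling). The other ligand of CD28 and CTLA-4, Cd86, was higher there, with 6.74, 6.97, 5.26 and 8.15 TPM against 3.23, 3.23, 2.81 and 3.36 TPM, yet its log2 fold change of 0.98 (adjusted p = 4.86e-06) became 0.38 with adjusted p = 0.0734 after median-ratio scaling. Thus the 2 ligands differed between the models in opposite directions on TPM as deposited.

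Of the inhibitory receptors, Havcr2 had a log2 fold change of 1.84 (SE 0.22), Pdcd1 of 1.51 (SE 0.22) and Lag3 of 1.30 (SE 0.18) in MC-38 over RM-9 controls, and limma's adjusted p was at most 8.97e-07 for each. After median-ratio scaling these were 1.28, 1.10 and 0.77, and each passed. Tigit differed by -0.10 (SE 0.31, adjusted p = 0.779), with 5.07, 4.10, 2.97 and 6.66 TPM in RM-9 and 3.20, 5.92, 2.79 and 5.69 TPM in MC-38 controls, and by -0.70 (adjusted p = 0.0419) after median-ratio scaling. T cell markers stood beside these values. The 8 markers summed to 5.49 to 10.7 TPM in RM-9 and 20.0 to 30.9 TPM in MC-38 controls, and 6 of the 7 tested were higher in MC-38 tumors (Cd8a log2 fold change 2.57, adjusted p = 1.1e-11). Relative to the mean log2 level of the T cell markers in the same library, Tigit was higher in every RM-9 control (1.94 ± 0.19, SD, n = 4) than in every MC-38 control (0.53 ± 0.34), while the Lag3 ratios overlapped, with 0.33 ± 0.40 (SD, n = 4) and 0.31 ± 0.27. The exact permutation p for Tigit was 0.0286, the smallest that 4 against 4 mice allow, and 0.0583 after Benjamini-Hochberg adjustment over the 49 ratios compared.

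**Figure D1:**
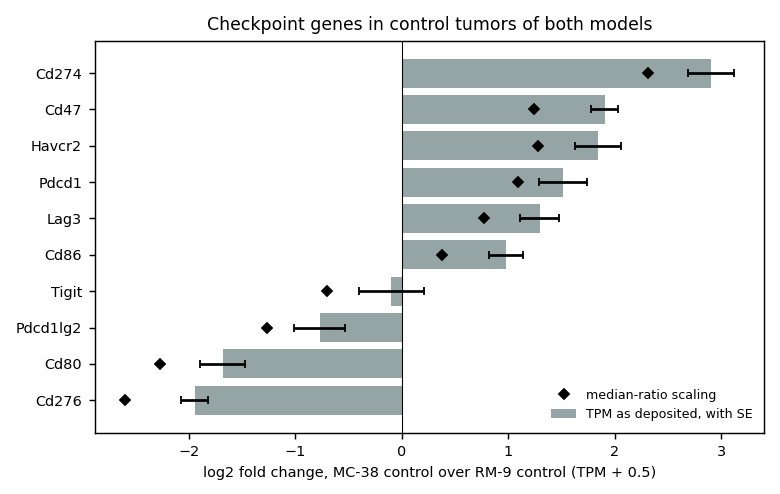
Difference of each checkpoint gene between control tumors, as the log2 fold change of MC-38 over RM-9 on TPM + 0.5 (bars, with the standard error of the limma fit) and after median-ratio scaling (diamonds), from 4 mice per model. Cd274 (2.90) stands highest and Cd276 (-1.95) lowest, and every diamond lies to the left of its bar's end.

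Ordered by mean TPM, the RM-9 controls ran from Cd47 (41.4 ± 5.41, SD, n = 4) and Cd276 (35.9 ± 1.46) over Cd80 (7.38 ± 0.59), Tigit (4.70 ± 1.56), Cd86 (3.16 ± 0.24), Cd274 (2.02 ± 0.32), Pdcd1lg2 (1.98 ± 0.22), Havcr2 (1.57 ± 0.11) and Lag3 (1.15 ± 0.23) to Pdcd1 (0.469 ± 0.092). Neighbours whose mice overlapped were Cd47 and Cd276, Tigit and Cd86, and Cd274 and Pdcd1lg2. The MC-38 controls ran from Cd47 (157 ± 24.3 TPM, SD, n = 4) over Cd274 (18.8 ± 4.76), Cd276 (9.09 ± 1.89), Havcr2 (7.01 ± 1.43), Cd86 (6.78 ± 1.19), Tigit (4.40 ± 1.63), Lag3 (3.57 ± 0.67), Pdcd1 (2.38 ± 0.99) and Cd80 (2.01 ± 0.69) to Pdcd1lg2 (1.02 ± 0.59), and from Cd276 downwards each gene overlapped the next. The rarest genes rest on few reads. Pdcd1 in RM-9 tumors had an estimated read depth of 0.232 to 1.34 per base and stayed under the filter of a mean of 0.5 TPM. Pdcd1lg2 in MC-38 tumors had 0.272 to 2.90, and Lag3 in RM-9 tumors 1.04 to 3.26.

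The next comparisons asked what RT changed within RM-9 tumors, where 9 of the 10 genes could be tested. None of them passed at any time, while 0.228%, 8.37% and 0% of all 14013 genes tested did at the 3 times in order. At an unadjusted p under 0.05, limma found 1, 3 and 2 of the 9, and Dunnett's comparisons on TPM, run on all 10, found 0, 2 and 1 with p under 0.05. At 12 h the median gene was itself lower (log2 -0.19), and 1163 of the 1173 genes past the threshold were lower.

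Cd80 had the largest positive values in RM-9 tumors at each time. Its TPM was 7.79, 15.8, 9.03 and 12.7 at 3 h, 8.20, 9.59, 13.8 and 9.17 at 12 h, then 15.1, 9.98 and 12.7 at 24 h, against 6.68 to 8.09 in controls. All mice at 12 h and 24 h lay above every control, and 3 of 4 did at 3 h. The log2 fold changes were 0.54, 0.42 and 0.72 (SE 0.20, 0.20 and 0.22), with limma's unadjusted p at 0.0172, 0.0553 and 0.00483 and adjusted p at 0.158, 0.17 and 0.927. After median-ratio scaling they were 0.47, 0.63 and 0.76, and none passed. Groups that do not overlap with every mouse above control were 0.243% of all genes at 12 h and 2.01% at 24 h, and Cd80 was among them at both times. Relative to the macrophage markers of the same library, Cd80 was higher in every mouse after RT than in every control, by 0.91, 1.06 and 0.72 on the log2 scale (exact permutation p = 0.0286 at each time, adjusted p = 0.0583). The macrophage markers had median log2 fold changes of -0.36, -0.81 and -0.10, which are part of these ratios.

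Of the PD-1 axis, Cd274 was at 3.69, 2.78, 1.54 and 2.40 TPM at 3 h, 1.76, 2.33, 2.10 and 1.36 TPM at 12 h, then 3.26, 2.10 and 2.26 TPM at 24 h in RM-9 tumors, overlapping the controls at each time, with log2 fold changes of 0.26, -0.09 and 0.26 (SE 0.20, 0.20 and 0.22). Pdcd1lg2 was at 1.54, 1.58, 1.00 and 1.34 TPM at 12 h, against 1.75 to 2.23 TPM in controls. Its log2 fold change of -0.42 (SE 0.15, limma adjusted p = 0.0754) lay beside a median gene of -0.19, and was -0.25 (adjusted p = 0.465) after median-ratio scaling. Dunnett's p for it was 0.0451 at n = 4 per group, on the original TPM and not adjusted over genes. For Pdcd1, which could not be tested by limma here, TPM at 12 h was 0.395, 0.157, 0.176 and 0.0915 against 0.331 to 0.526 in controls, with a Dunnett's p of 0.0239 and an exact permutation p of 0.0571.

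Lag3 in RM-9 tumors was at 0.591 to 1.01 TPM at 3 h, 0.424 to 1.20 TPM at 12 h and 0.810 to 0.917 TPM at 24 h, against 0.812 to 1.28 TPM in controls, with log2 fold changes of -0.36, -0.46 and -0.27 (SE 0.18, 0.18 and 0.19). Havcr2 was at 2.08, 1.82 and 2.45 TPM at 24 h, above all controls (1.44 to 1.71), with a log2 fold change of 0.33 (SE 0.13, unadjusted p = 0.0268, adjusted p = 0.999) and a Dunnett's p of 0.0469, from 3 mice after RT. The log2 fold changes of Tigit, Cd86, Cd276 and Cd47 lay between -0.32 and 0.07 at all 3 times. Markers of other cells moved at the same times. The 8 T cell markers summed to 1.78 to 5.02 TPM at 3 h and 1.56 to 5.72 TPM at 12 h against 5.49 to 10.7 TPM in controls, and 3 of the 4 tested fell at 12 h. Of the 8 macrophage markers, 5 fell at 12 h, with sums of 189 to 370 TPM against 381 to 597 TPM, and 0 T cell and 0 macrophage markers passed at 12 h after median-ratio scaling. The 5 skeletal muscle markers summed to 218 to 2057 TPM in controls, 2.95 to 810 TPM at 3 h, 2.75 to 855 TPM at 12 h and 200.2 to 2103 TPM at 24 h, with median log2 fold changes of -4.63, -3.89 and -0.42, and although all 5 had an unadjusted limma p under 0.05 at 3 h and 12 h, 0 passed at any time. Their part in the checkpoint values was not tested.

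RT was visible in the same RM-9 libraries. Cdkn1a, the p53 target that encodes the cell cycle inhibitor p21, rose at 3 h by 0.96 (SE 0.12, adjusted p = 0.0106), and 5, 3 and 0 of 8 p53 target genes rose at the 3 times.

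**Figure D2:**
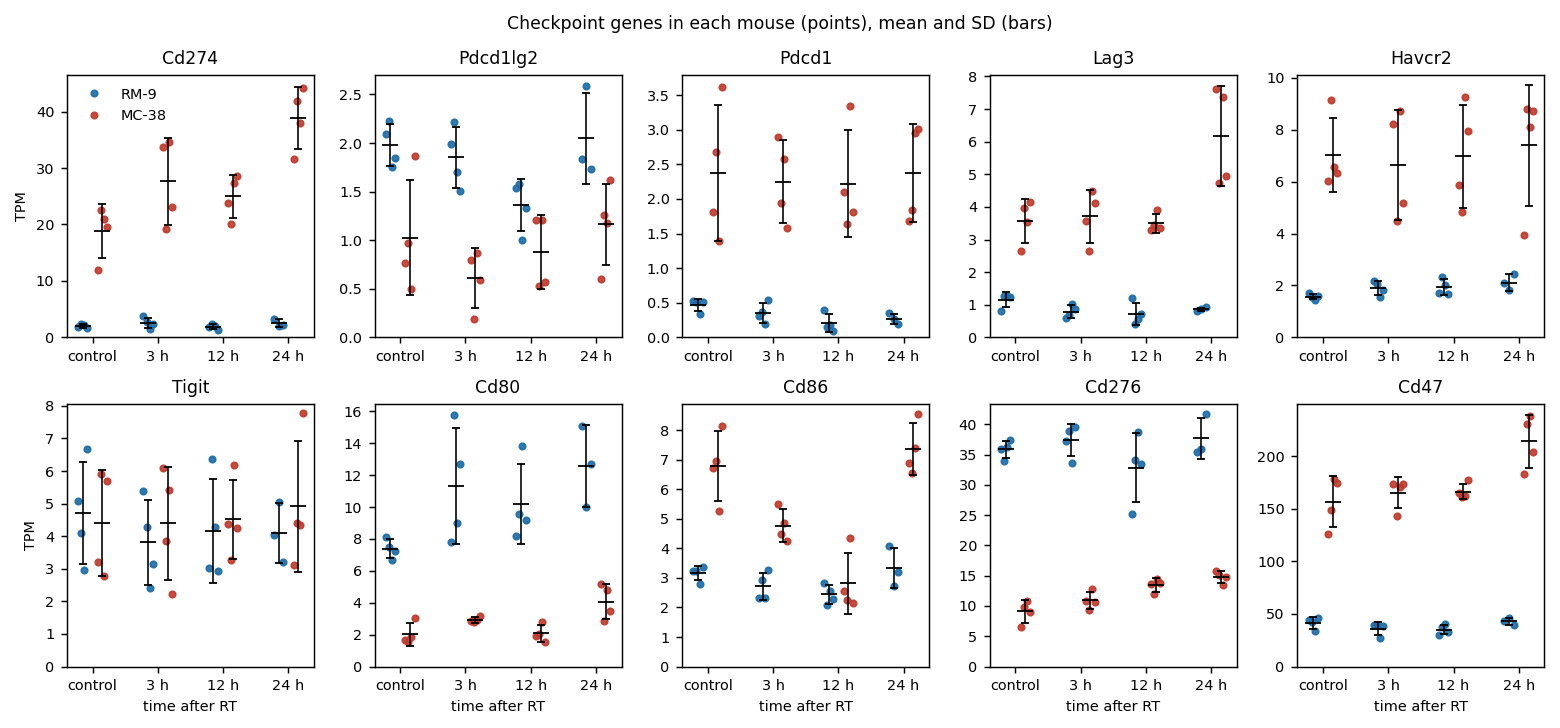
TPM of each checkpoint gene in control tumors and at each time after RT, with 1 point per mouse (RM-9 left and blue, MC-38 right and red) and the group mean and SD as bars. In MC-38 tumors Cd274 reaches 31.5 to 44.2 TPM at 24 h against 11.9 to 22.6 in controls, and Cd86 dips to 2.14 to 4.36 at 12 h and is back at 6.56 to 8.56 at 24 h.

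In MC-38 tumors, where all 10 genes were tested, 0 passed at 3 h, 2 at 12 h and 5 at 24 h. Among all 15698 genes tested, 0.0637% passed at 3 h, 31.1% at 12 h and 13.8% at 24 h. At 12 h, 1 checkpoint gene rose (Cd276) against 28.5% of all genes and 1 fell (Cd86) against 2.59%. At 24 h, 5 rose (Cd274, Cd276, Cd80, Lag3 and Cd47) against 13.2% of all genes and 0 fell against 0.548%. The median log2 fold change of the 10 genes was 0.31 at 24 h beside 0.22 for all genes. With median-ratio scaling, 0 rose and 2 fell (Cd86 and Cd47) at 12 h, and 2 rose (Cd274 and Cd276) and 0 fell at 24 h, against 6.27%, 9.98%, 7.79% and 8.20% of all genes. At 3 h, 3 genes had an unadjusted limma p under 0.05 (Cd274, Cd80 and Cd86), and Dunnett's comparisons found 1, Cd86. They found the same 2 and 5 genes as limma at the later times.

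Cd274 rose at 24 h. Its TPM was 11.9, 22.6, 21.03 and 19.6 in controls, 33.7, 19.1, 34.6 and 23.1 at 3 h, 23.8, 20.1, 27.4 and 28.6 at 12 h, then 31.5, 41.8, 38.0 and 44.2 at 24 h. Every mouse at 24 h lay above every control, while at 3 h and 12 h the ranges overlapped. The log2 fold change at 24 h was 1.06 (SE 0.21, 2.08-fold, adjusted p = 0.00573) and 0.80 (adjusted p = 0.006) after median-ratio scaling, and it passed in all 8 fits that left out a mouse (0.86 to 1.16). Without control mouse 1, the library with the highest mitochondrial share, it was 0.86 (adjusted p = 0.0133), and 4 of the 5 genes passed. At 3 h the log2 fold change was 0.54 (SE 0.21, adjusted p = 0.202) and at 12 h 0.43 (SE 0.21, adjusted p = 0.122).

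Pdcd1lg2 did not move with its neighbour. It was at 0.763, 0.973, 0.498 and 1.86 TPM in controls, 0.7998, 0.186, 0.867 and 0.588 at 3 h, 1.21, 0.527, 1.21 and 0.569 at 12 h, then 0.603, 1.26, 1.17 and 1.62 at 24 h, with log2 fold changes of -0.43, -0.11 and 0.16 (SE 0.30 each) and overlap at each time. The within-library log2 ratio of Cd274 to Pdcd1lg2 was 3.09 to 4.43 in controls, 4.44 to 4.84 at 3 h and 4.40 to 4.86 at 24 h. It was larger than in controls by 0.97 at 3 h and by 0.90 at 24 h (exact permutation p = 0.0286 and 0.0571, adjusted p = 0.0583 and 0.104). Neither difference passed after adjustment, nor did any of the 49 ratios. The smallest exact permutation p that these groups allow, 0.0286, became 0.0583, so this adjustment cannot tell the ratios apart. The receptor gene Pdcd1 overlapped the controls at each time, with 1.40 to 3.62 TPM in controls and 1.58 to 3.34 TPM in the 12 mice after RT, and log2 fold changes of -0.03, -0.06 and 0.03 (SE 0.26).

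Lag3 rose at 24 h, and Havcr2 and Tigit passed at no time. Lag3 was at 2.64, 3.97, 3.52 and 4.14 TPM in controls, 3.58, 2.64, 4.48 and 4.13 at 3 h, 3.30, 3.43, 3.91 and 3.35 at 12 h, then 7.61, 4.73, 7.36 and 4.94 at 24 h. All 4 mice at 24 h were above the controls, with mice 1 and 3 highest. The log2 fold change was 0.70 (SE 0.19, adjusted p = 0.0234), but 0.46 (adjusted p = 0.0861) after median-ratio scaling, and the call was lost without control mouse 1 (0.58, adjusted p = 0.0647), RT mouse 1 (0.59, adjusted p = 0.0517) or RT mouse 3 (0.61, adjusted p = 0.0592). Havcr2 was at 6.03 to 9.14 TPM in controls and 3.95 to 9.25 TPM after RT, and Tigit at 2.79 to 5.92 TPM and 2.22 to 7.79 TPM, with log2 fold changes between -0.11 and 0.14 for both genes at all 3 times (SE 0.27 and 0.31).

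T cell markers were lower while Lag3 was higher. The 8 markers summed to 20.0 to 30.9 TPM in controls, 12.7 to 23.8 TPM at 3 h, 10.7 to 22.1 TPM at 12 h and 9.63 to 18.9 TPM at 24 h. Of the 8, 0, 5 and 3 fell at these times (Cd3e -0.95 at 24 h, adjusted p = 0.0224), or 0, 8 and 5 after median-ratio scaling. Relative to these markers, Lag3 had a log2 ratio of 0.31 ± 0.27 (SD, n = 4) in controls, 1.01 ± 0.26 at 12 h and 1.64 ± 0.54 at 24 h, and Tigit 0.53 ± 0.34, 1.31 ± 0.22 and 1.30 ± 0.32. For Pdcd1 the ratio went from -0.24 ± 0.30 in controls to 0.18 ± 0.05, 0.42 ± 0.14 and 0.42 ± 0.13 at the 3 times. In each of these cases after RT every mouse lay above every control (exact permutation p = 0.0286, adjusted p = 0.0583). The T cell markers had median log2 fold changes of -0.47, -0.71 and -0.66 at the 3 times. The median gene was at 0.19, 0.33 and 0.22, so a gene that moved with it also gains on these markers. Tigit and Pdcd1 themselves lay between -0.06 and 0.14 against control. How many of all genes have such a ratio was not tested. For Havcr2 the ratio to the markers of macrophages, on which TIM-3 is also found, was 0.88 above control at 12 h, with every mouse above. It overlapped the controls at 3 h and 24 h. Havcr2 itself was at -0.03 at 12 h, while the macrophage markers had a median log2 fold change of -1.14 and the median gene was at 0.33. In RM-9 tumors, every mouse was likewise above the controls in the Havcr2 ratio at 3 h (by 0.58) and 12 h (by 0.87). Every mouse was also above them in the ratio of Pdcd1 to the T cell markers at 3 h (by 0.33). Each had an exact permutation p of 0.0286 and an adjusted p of 0.0583. Havcr2 itself was then at 0.20 and 0.23, beside -0.36 and -0.81 for the median macrophage marker. Pdcd1 was at 0.190 to 0.544 TPM at 3 h, under the filter and near the pseudocount of 0.5. Of the 8 T cell markers, 4 could be tested there. NK cell markers, whose cells also carry these receptors, summed to 20.0 to 41.5 TPM in controls and 23.1 to 52.0 TPM at 24 h, and 0 of the 4 passed at any time.

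Cd86 had the largest change of the 10 genes after RT, and it was transient. It was at 6.74, 6.97, 5.26 and 8.15 TPM in controls, 5.49, 4.50, 4.88 and 4.24 at 3 h, 2.55, 2.27, 4.36 and 2.14 at 12 h, then 6.88, 6.56, 7.42 and 8.56 at 24 h. At 12 h every mouse was below every control, as for 1.97% of all genes, with mouse 3 the highest, and at 24 h the ranges overlapped again. The log2 fold change at 12 h was -1.16 (SE 0.19, 0.448-fold, adjusted p = 0.00494), -1.48 (adjusted p = 0.00253) after median-ratio scaling, and it passed in all 8 fits without a mouse (-1.36 to -1.06). At 3 h it was -0.46 (SE 0.19, adjusted p = 0.21) and at 24 h 0.12 (SE 0.19, adjusted p = 0.695). Cd80, by contrast, rose at 24 h, from 1.63, 1.52, 1.86 and 3.03 TPM in controls to 5.15, 2.85, 4.81 and 3.46 TPM, with RT mouse 2 below control mouse 4. Its log2 fold change was 0.87 (SE 0.21, adjusted p = 0.0141) and 0.65 (adjusted p = 0.0609) after median-ratio scaling. At 12 h Cd80 was at 1.56 to 2.82 TPM, a log2 fold change of 0.06 (SE 0.21).

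Macrophage markers fell with Cd86 at 12 h, but their sums stayed below every control at 24 h, when Cd86 overlapped its controls again. At 24 h, 5 of the 8 markers had every mouse below every control, and 1 had every mouse above. The 8 markers summed to 821 to 1311 TPM in controls, 571 to 898 TPM at 3 h, 299 to 710 TPM at 12 h and 656 to 818 TPM at 24 h. Of the 8, 0, 5 and 1 fell at these times, or 0, 6 and 4 after median-ratio scaling. C1qa, a complement subunit made by macrophages, fell by 1.25 and Adgre1, the F4/80 antigen, by 1.04 on the log2 scale at 12 h (adjusted p = 0.00688 and 0.0105). None of the 8 was at 0 in all mice of a group. The 5 skeletal muscle markers summed to 16.9 to 9783 TPM in controls and 5.51 to 418 TPM at 12 h, with a median log2 fold change of -3.65, and 0 of them passed. The log2 ratio of Cd86 to these markers was -2.94 to -2.76 in controls, -3.33 to -2.81 at 12 h and -2.57 to -2.15 at 24 h. It differed from controls by -0.25 at 12 h (exact permutation p = 0.114, adjusted p = 0.17) and by 0.51 at 24 h (exact permutation p = 0.0286, adjusted p = 0.0583). For Cd80 the ratio was above every control in every mouse at each time, by 0.84, 0.97 and 1.26 on the log2 scale. At each time the exact permutation p was 0.0286 and the adjusted p 0.0583. Cd80 itself was at 0.48, 0.06 and 0.87, and the macrophage markers had median log2 fold changes of -0.49, -1.14 and -0.56. The part of macrophage number or muscle in the values of Cd80 and Cd86 was not tested.

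**Figure D3:**
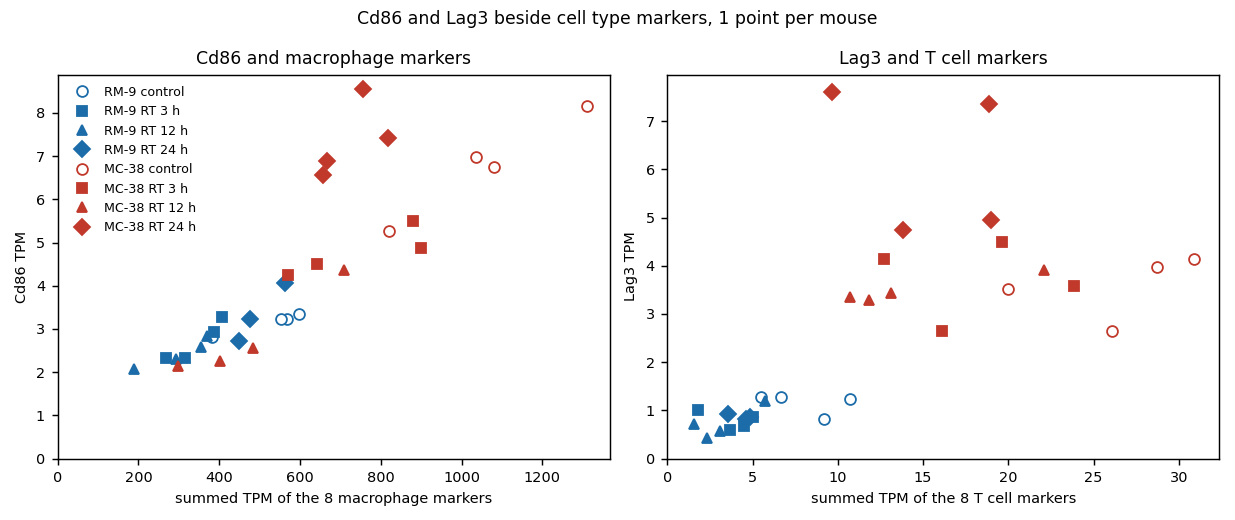
TPM of Cd86 against the summed TPM of 8 macrophage markers, and of Lag3 against that of 8 T cell markers, with 1 point per mouse (blue RM-9, red MC-38, open circles controls). The 4 MC-38 mice at 24 h have 6.56 to 8.56 TPM of Cd86 beside 656 to 818 TPM of macrophage markers, and 4.73 to 7.61 TPM of Lag3 beside 9.63 to 18.9 TPM of T cell markers.

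Cd276 and Cd47 rose in MC-38 tumors at 24 h on TPM as deposited. Cd276 was at 6.48, 9.91, 10.9 and 9.08 TPM in controls, 10.9, 9.36, 12.8 and 10.7 at 3 h, 13.6, 11.9, 14.5 and 13.8 at 12 h, then 15.8, 15.0, 13.5 and 14.8 at 24 h, so that all mice at 12 h and 24 h were above all controls, as for 34.5% and 14.8% of all genes. The log2 fold change of Cd276 was 0.56 (SE 0.14, adjusted p = 0.0165) at 12 h and 0.69 (SE 0.14, adjusted p = 0.00677) at 24 h. After median-ratio scaling, the values were 0.23 (adjusted p = 0.136) and 0.44 (adjusted p = 0.0097), so the rise at 24 h alone held under both scalings. It was not past the threshold when just the controls and the 24 h group were fitted (adjusted p = 0.0779). Cd47 was at 126, 148, 178 and 175 TPM in controls and 183, 231, 238 and 204 TPM at 24 h, each above the controls, with a log2 fold change of 0.45 (SE 0.12, adjusted p = 0.0192) but 0.19 (adjusted p = 0.145) after median-ratio scaling. Without RT mouse 2 it was 0.41 (adjusted p = 0.0588). At 12 h Cd47 was at 165, 161, 163 and 177 TPM, and its direction turned with the scaling, from 0.10 (adjusted p = 0.508) to -0.26 (adjusted p = 0.0497).

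**Figure D4:**
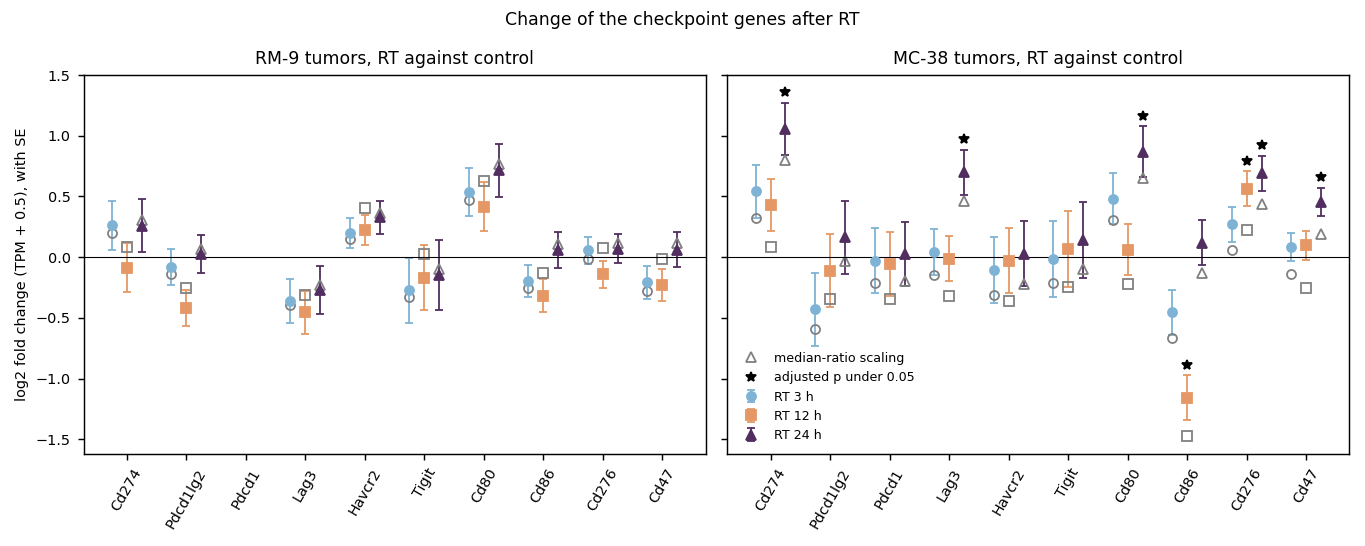
Log2 fold change of each checkpoint gene against control in each model at 3 h (circles), 12 h (squares) and 24 h (triangles) after RT, with the standard error of the limma fit, open grey symbols for median-ratio scaling and stars for adjusted p under 0.05. Pdcd1 was not tested in RM-9 tumors. Stars appear for MC-38 alone, with Cd86 at -1.16 at 12 h and Cd274 at 1.06 at 24 h farthest from 0.

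Whether the models differed in their response was tested as an interaction in 1 fit of all 31 libraries. No checkpoint gene passed for the 3 h or 24 h change and 2 of 10 passed for the 12 h change, against 0%, 1.81% and 45.4% of all genes, and at an unadjusted limma p under 0.05 there were 0, 4 and 2. Cd86 fell more in MC-38 than in RM-9 tumors at 12 h, by -0.84 on the log2 scale (SE 0.23, adjusted p = 0.00714) and by -1.26 (adjusted p = 0.0131) after median-ratio scaling. Of all genes, 0.469% had a difference past the threshold in that direction on TPM as deposited, where the median gene's difference was 0.50. After median-ratio scaling, 231 of 15358 genes passed in that direction and 233 in the other. The difference for Cd276 at 12 h was 0.70 (SE 0.18, adjusted p = 0.00537), in the direction of 44.9% of all genes, and 0.17 (adjusted p = 0.448) after median-ratio scaling, under which 1 of the 10 genes passed against 3.02% of all genes. At 24 h the differences were 0.97 for Lag3 (SE 0.27, adjusted p = 0.055), 0.80 for Cd274 (SE 0.32, adjusted p = 0.146), 0.62 for Cd276 (SE 0.19, adjusted p = 0.067) and 0.39 for Cd47 (SE 0.19, adjusted p = 0.216). The rise of these 4 genes past the threshold in MC-38 tumors is thus not shown to differ from their change in RM-9 tumors. For Cd80 the difference at 24 h was 0.15 (SE 0.31, adjusted p = 0.806) and its values lay above control in both models.

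Partners of the checkpoint genes and the genes that control PD-L1 were taken from lists, of 27 and 10 genes. Of the 27, 26 were in the files, 21 could be tested between control tumors, and 16 were higher and 2 lower in MC-38 tumors, near the 64.7% and 10.7% of all genes. After median-ratio scaling, 8 were higher and 3 lower. Of the PD-L1 control genes, 9 of 10 were higher and 0 lower, and after median-ratio scaling 8 were higher and 1, Ifngr2, lower (-0.57, adjusted p = 0.000435). Irf1 (log2 fold change 3.12) and Socs1 (2.39), a transcription factor and a feedback inhibitor of interferon signalling, were far above the median gene (0.63), as was Ifng itself (1.90, with 0 to 0.236 TPM in RM-9 and 1.06 to 2.69 TPM in MC-38 controls). The largest difference was in Ido1, a tryptophan-degrading enzyme (5.14, SE 0.28), followed by Fgl1, a ligand of LAG-3 (2.63), Tnfrsf14, the ligand of BTLA (2.62), and Lgals9, a ligand of TIM-3 (2.60). Nt5e, the adenosine-forming ectoenzyme CD73, was lower (-2.39, SE 0.16). Sirpa, the receptor of CD47, differed by 1.05, Nectin2 by 0.58 and Pvr by 0.60, and none of the 3 passed (smallest adjusted p = 0.111) after median-ratio scaling. Ctla4 differed by 0.09 (SE 0.24, adjusted p = 0.747), and Cd28 was at 0.123 to 0.309 TPM in RM-9 and 0.507 to 0.977 TPM in MC-38 controls.

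After RT, no partner or PD-L1 control gene passed in RM-9 tumors at 3 h or 24 h, where 5 and 0 at 3 h and 2 and 2 at 24 h had an unadjusted limma p under 0.05. At 12 h Sirpa (-0.51, adjusted p = 0.036) and Ifngr1 (-0.37, adjusted p = 0.0475) fell, but not after median-ratio scaling (adjusted p = 0.355 and 0.467), and they held in 2 and 1 of 8 fits without a mouse. Irf1 and Lgals9 were at -0.30 and -0.65 at 12 h (adjusted p = 0.289 and 0.0915), and Ctla4 at -0.74 (adjusted p = 0.0572), with 0.395 to 0.667 TPM against 1.02 to 2.19 TPM in controls. Nectin2 and Pvr were between -0.08 and 0.29 at all times.

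In MC-38 tumors, none of the 22 partner genes tested and none of the 10 control genes passed at 3 h, and 5 and 4 had an unadjusted p under 0.05. Sirpa was then at -0.95 (SE 0.24, adjusted p = 0.0959), with 12.7 to 25.6 TPM against 28.4 to 43.2 TPM in controls. At 12 h, 3 partner genes rose and 3 fell, against 28.5% and 2.59% of all genes, and 1 rose and 4 fell after median-ratio scaling. Sirpa fell by 1.09 (adjusted p = 0.0109), from 28.4 to 43.2 TPM in controls to 11.2 to 26.0 TPM, Vsir, which encodes the inhibitory ligand VISTA, fell by 0.84 (adjusted p = 0.0179), and Cd48, the ligand of the 2B4 receptor, fell by 0.75 (adjusted p = 0.0141), all 3 also after median-ratio scaling. Nectin2, a ligand of TIGIT, rose by 0.74 (adjusted p = 0.00497) and was at 0.40 (adjusted p = 0.00357) after median-ratio scaling. The rises of Pvr, the other main ligand of TIGIT (0.46, adjusted p = 0.0476), and of Lgals9 (0.42, adjusted p = 0.031) did not hold after it, nor did those of Jak1 (0.51) and Cmtm4 (0.73), the 2 PD-L1 control genes that passed.

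At 24 h, the partners Nectin2 and Lgals9 rose in MC-38 tumors and no partner fell, out of 22 tested, against 13.2% and 0.548% of all genes. After median-ratio scaling, 2 fell, Vsir (-0.91, adjusted p = 0.0206) and Nectin3 (-0.30, adjusted p = 0.0272). Nectin2 was at 28.1 to 30.5 TPM against 11.3 to 17.7 TPM in controls (log2 fold change 0.98, SE 0.12, adjusted p = 0.000314), and Lgals9 at 281 to 323 TPM against 124 to 208 TPM (0.87, SE 0.13, adjusted p = 0.000976), and both passed after median-ratio scaling (0.72 and 0.61). The genes of their receptors, Tigit and Havcr2, did not pass. Ido1 was at 20.5 to 67.5 TPM against 17.3 to 30.98 TPM in controls, with a log2 fold change of 1.01 (SE 0.34, adjusted p = 0.0597). Of the 10 PD-L1 control genes, 6 rose beside Cd274 and 0 fell, and 2 rose after median-ratio scaling, against 13.2% and 7.79% of all genes that rose. Values are given for 5 of the 6. Irf1 rose by 0.63 (SE 0.19, adjusted p = 0.0372), from 110 to 186 TPM in controls to 216 to 284 TPM, Jak2 by 0.51 (adjusted p = 0.0167), Cmtm6, which stabilises PD-L1, by 0.48 (adjusted p = 0.0142), Jak1 by 0.48 (adjusted p = 0.0315) and Ifngr2 by 0.36 (adjusted p = 0.029). Leaving out a mouse kept Cmtm6 past the threshold in all 8 fits, Jak2 in 7, Ifngr2 in 5 and Irf1 and Jak1 in 3. After median-ratio scaling, Jak2 (0.25, adjusted p = 0.0308) passed among these 5. Ifng was at 1.72 to 2.15 TPM against 1.06 to 2.69 TPM in controls (0.08, SE 0.29, adjusted p = 0.866). Ctla4 and Cd28 were at -0.26 and -0.06 (SE 0.24 each), Sirpa was back at -0.24 (SE 0.24), and Pvr was at 0.39 (adjusted p = 0.133). In MC-38 tumors, 3, 4 and 3 of 8 p53 target genes rose at the 3 times, Cdkn1a at each.

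Between the models, the RT change of Nectin2 differed at 12 h (0.82, adjusted p = 0.00156) and 24 h (1.04, SE 0.16, adjusted p = 0.0009), and at 24 h also after median-ratio scaling (0.78, adjusted p = 0.000402). It was the only partner gene to pass at 24 h among 21. At 12 h, 3 of 21 partner genes and 6 of 10 PD-L1 control genes had a higher change in MC-38 tumors, against 44.9% of all genes, Lgals9 (1.06), Cmtm4 (0.98), Tnfrsf14 (0.94), Jak1 (0.90) and Irf1 (0.77) among them, and 0 of these passed after median-ratio scaling. The change of Vsir was lower in MC-38 tumors (-0.63, adjusted p = 0.0479, and -1.13, adjusted p = 0.0251, after median-ratio scaling), and that of Sirpa was at -0.58 (adjusted p = 0.0867) and -1.10 (adjusted p = 0.0496).

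The genes whose level ran most closely with each checkpoint gene were found by Pearson's r over the 15 RM-9 or 16 MC-38 libraries on the log2 scale after median-ratio scaling, as a description that includes differences between the groups. Cd86 had the closest companions in both models, the myeloid genes Tyrobp (r = 0.957) and Lyn (0.936) in RM-9 and Ms4a6c (0.973), Mpeg1 (0.970) and Klra2 (0.968) in MC-38 tumors. Cd274 ran with the inflammatory genes Il1b (0.813), Emilin2 (0.803) and Tnfaip3 (0.769) in RM-9 tumors, and with the cytokine gene Il15 (0.909), the interferon-inducible GTPase gene Tgtp1 (0.899) and Dapp1 (0.894) in MC-38 tumors. In MC-38 tumors Pdcd1 and Tigit were among each other's closest genes (0.875), with Lat (0.872) and Nkg7 (0.859) for Pdcd1 and Fam49a (0.878) and Tnfrsf4 (0.824) for Tigit. Lag3 ran there with Anxa1 (0.907), AA467197 (0.902) and the chemokine gene Ccl4 (0.902), Havcr2 with Blnk (0.925), H2-DMb1 (0.883) and Prl2c3 (0.876), and Cd80 with Ccl11 (0.908), Gfpt2 (0.901) and Ubd (0.898). Cd276 ran with Arhgap17 (0.903), Med15 (0.892) and Tex11 (0.887), and Cd47 with Ly6c1 (0.946), Bcap31 (0.936) and the immunoproteasome gene Psmb9 (0.936).

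No gene was among the 3 closest to the same checkpoint gene in both models. In RM-9 tumors, Cd47 ran with Cisd1 (0.932), H2-K2 (0.914) and Hmgn3 (0.912), Cd276 with Parp3 (0.881), Net1 (0.876) and Fblim1 (0.870), and Cd80 with Glipr2 (0.894), Fbxo25 (0.870) and Faf2 (0.863). Tigit ran with Mgst3 (0.886), Ccdc109b (0.885) and Syt11 (0.867), none a T cell gene, Havcr2 with BC100451 (0.855), Cxcl2 (0.843) and RP24-567O8.3 (0.839), and Pdcd1lg2 with Mapkapk2 (0.830), 2010320M18Rik (0.817) and Clk3 (0.793). Lag3 and Pdcd1 in RM-9 tumors, and Pdcd1lg2 in MC-38 tumors, had a mean under 1 TPM and were left out. Each list is the top of 12694 or 14234 genes compared over few libraries.

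By position on GRCm38 as the files give it, Cd274 lies at chr19:29367455-29388095 (+), Pdcd1lg2 at chr19:29410919-29471157 (+), Pdcd1 at chr1:94038305-94052553 (-), Lag3 at chr6:124904361-124911705 (-), Havcr2 at chr11:46454935-46481255 (+), and Cd276 at chr9:58524300-58555132 (-). Chromosome 16 holds Cd86 at chr16:36603869-36666081 (-), Cd80 at chr16:38458933-38486933 (+), Tigit at chr16:43648861-43664184 (-) and Cd47 at chr16:49855618-49915010 (+). Cd276 overlaps Gm10657 on the other strand (at most 0.378 TPM) and Cd47 overlaps AC107830.1 (at most 0.929 TPM), so reads could be shared between them, which was not tested.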

How the data were processed

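The labels gave 1 library per mouse, made with a stranded messenger RNA kit and read as single ends of 75 bases. Per the file headers, the authors deposited TPM, FPKM and coverage for each gene. The deposited TPM, scaled within each library to a fixed total with mitochondrial genes included, was used for every result. Deposited FPKM and coverage (mean read depth per base) served to estimate reads per library from their ratio. The read depth given for a gene is its FPKM times that ratio, and so is an estimate too. Because the tables hold no counts, no counting error could be given, and low values are imprecise. Aligner, quantification program and filters are not given in the sources used here. The submitters' processing notes name bcl2fastq 2.17 and another mouse build, while 91.1% of 45137 genes shared with GENCODE M21 had the same start or end as on GRCm38. Rows that repeat a gene (9 to 23 per library) were summed.

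Log2(TPM + 0.5) was fitted with limma 3.58.1 in R 4.3.3 (eBayes with trend) for genes with a mean of at least 0.5 TPM, with the 4 groups of a model together, or the 8 groups for comparisons between models, and Benjamini-Hochberg adjustment over all genes at 0.05. The fits were tested on simulated data. Exact permutation tests were two-sided, over 70 (4 against 4 mice) or 35 (3 against 4) assignments, with 0.0286 the smallest p. Dunnett's comparisons, the study's test, were run on TPM with scipy 1.17.1, and figures were drawn with matplotlib 3.10.9. Ratios are a gene's log2(TPM + 0.5) minus the mean of the marker genes in the same library.

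Groups came from the sample titles. The labels name no batch within a model, and p-values measure the spread between mice. The genes, the lists of partners, PD-L1 control genes, p53 targets and cell type markers, and the tests were chosen with earlier results of these data known. Named were all 10 genes, the up to 6 partner or PD-L1 control genes per comparison with the largest change past the threshold, and fixed partners (Ctla4, Cd28, Sirpa, Pvr, Nectin2, Lgals9, Ifng and Irf1). Ido1 after RT, Nectin3, Sirpa and Ifngr2 under median-ratio scaling and single marker genes were named after their values were seen. Closest genes were the 3 with the highest r among genes with a mean of at least 1 TPM. Tried besides were median-ratio scaling, other pseudocounts (0.1 and 1), leaving mitochondrial genes out of TPM, no filter or a mean of at least 5 TPM, only the groups compared, mouse numbers as a block, no trend and each mouse left out. Promoter sequences came from RefSeq. Pvrig of the partner list was not matched by name and not analysed here. Some genes and motifs that these rules name are not reported here.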

Additional observations from a re-analysis of the deposited data

Results flagged for a closer look

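In the difference between the models, Cd86 at 12 h (-0.84 on the log2 scale) and Cd276 at 12 h (0.70) were flagged because the interaction of model and RT passed limma's adjusted threshold. The first is a fall in MC-38 tumors (-1.16) beside -0.32 in RM-9 tumors, the second a rise (0.56) beside -0.14. Of all genes, 0.469% passed in the direction of Cd86 and 44.9% in that of Cd276, so Cd276 does not stand apart from the background. These shares are on TPM as deposited, where the median gene's difference was 0.50. With median-ratio scaling, 231 of 15358 genes passed in the direction of Cd86 and 233 in that of Cd276. After median-ratio scaling the difference was 0.17 for Cd276 (limma adjusted p = 0.448).

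In 5 of 70 groups of 4 mice, a single mouse lay far from the other 3 by Dixon's criterion, which chance alone meets in about 1 of 20 groups. Each was the lowest mouse of its group. These were RM-9 control mouse 3 for Pdcd1 (0.331 TPM against 0.508 to 0.526), RM-9 control mouse 1 for Lag3 (0.812 against 1.24 to 1.28), MC-38 RT 24 h mouse 1 for Havcr2 (3.95 against 8.09 to 8.80), RM-9 RT 3 h mouse 3 for Cd47 (27.0 against 38.3 to 39.3) and MC-38 RT 3 h mouse 2 for Cd47 (143 against 171 to 174). Without its low mouse, none of the comparisons of RT with control for Lag3, Havcr2 and Cd47 in these groups passed.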

How the results depend on the processing

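Counts of checkpoint genes past the threshold moved under these settings. When the fit held just the compared groups, MC-38 went from 2 to 1 at 12 h (Cd86 passed) and from 5 to 1 at 24 h (Cd274 passed). With median-ratio scaling, MC-38 at 24 h went from 5 to 2 and the 12 h difference between models from 2 to 1. With a mean of at least 5 TPM, which leaves fewer genes to test, they were 3, 4 for the control tumors (from 9) and 1 for the 12 h difference. A pseudocount of 1 gave 1 for the 24 h difference (from 0, Lag3), and leaving out a mouse gave 0 to 2 there, with 2 (Lag3 and Cd276) without MC-38 control mouse 3. Leaving out a mouse gave 4 to 5 in MC-38 at 24 h and the same counts elsewhere. TPM without mitochondrial genes changed no call. Cd47 in MC-38 at 12 h reversed to -0.26 after median-ratio scaling. The cause was not tested.

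Mouse numbers are shared by groups of different mice, so they are names. Deviations of same-numbered mice correlated from -0.48 to 0.55, and not every mouse correlated best with its own number. With the replicate block, RM-9 at 12 h went from 0 to 1 (Pdcd1lg2), and no other count of checkpoint genes moved by over 1.5 times. For single genes, 855 of 873 values under alternatives that kept all mice and 991 of 997 with a mouse left out stayed on the same side of the threshold, and 104 values that did not pass changed sign. Genes with a mean under 1 TPM, Pdcd1 and Lag3 in RM-9 and Pdcd1lg2 in MC-38 tumors, are limited by depth.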
